A study of Mus musculus with 10 samples.

Results

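Chromatin accessibility after infection with Sox2 virus alone was compared with that after Flag control virus. These were 2 of the 10 libraries of the series and 4 of the 20 columns of the deposited gene table, and all 21965 genes of that table were used. Both libraries were made from mouse embryonic fibroblasts (MEFs) of E13.5 embryos, and the strain is labelled ICR. The cells carry a transgene in which the Oct4 promoter drives GFP, were infected with pMXs retroviruses packaged in plat-E cells, and were kept in mESC medium. In ATAC-seq a transposase inserts adapters into open DNA, and about 50000 cells went into each library. Neither the time after infection, nor the share of infected cells, nor the number of pooled embryos is stated in the labels. The other 8 libraries received Klf4, Oct4, the Oct4 mutant L80A, or Sox2, Klf4 and Oct4 together (SKO), the last also with the mutant instead of Oct4 (SKO-L80A), with vitamin C (Vc) or Ga added to SKO-L80A, or with shBrg1 added to SKO.

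Sox2 is a transcription factor whose HMG box binds and bends DNA in the minor groove at sites with the core CATTGT, and it can bind such sites on nucleosomes. It maintains pluripotent cells together with Oct4, keeps neural progenitors from differentiating, and specifies the foregut and the basal cells of squamous epithelia such as the oesophagus. Fibroblasts normally do not express it, and it is one of the factors used to turn them into pluripotent cells.

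Each condition had 1 library with 2 columns, whose relation no label states, so the columns were counted as 1 replicate. No test was made, and differences are described by size. A log2 difference below is the signal in Sox2 against that in Flag, with a pseudocount of 0.138 added to both, less the all-gene median, averaged over columns 1 and 2. The median of all genes itself was shifted by -0.15 in column 1 and by -0.03 in column 2. A gene was called when this log2 difference reached 1 in either direction and the mean signal of the higher library reached 6.92, the median of all values of the table. At that minimum were 10678 genes. Columns are called separated when, after each column was centred on its own median, both Sox2 columns lay on the same side of both Flag columns. The data are from bulk cells, so a site open in more cells and a site more open in each cell cannot be told apart.

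The signal summed over genes was 155164 and 248919 in the Flag columns and 131439 and 216711 in the Sox2 columns. The other 8 libraries spanned 112439 to 370390. The number of reads is unknown. The ratio of the median signal of housekeeping genes to that of olfactory receptor genes, a measure of signal over background, was 62.5 and 191 in Flag and 38.6 and 124 in Sox2. Across the other libraries that ratio ran from 32.2 to 245. In both libraries the second column stood well above the first, and in each column the ratio was lower in Sox2. Values followed gene starts, as read from Flag column 2 for neighbouring genes with a single RefSeq start each. Of pairs with starts within 500 bases, 395 of 419 (94.3%) had values within 1% of each other, against 12 of 110 (10.9%) at 3000 to 4000 bases. A value therefore describes the surroundings of a start and can be shared by neighbours.

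Most genes differed little between Sox2 and Flag. Of the 10678 genes at the minimum, 95.3% had a log2 difference within 0.5 of 0, and the median was -0.14. The SD across genes of the difference, averaged over the 2 column pairs, was 0.247. For single differences it was 0.207 between the 2 Flag columns and 0.284 between the 2 Sox2 columns. Averaging narrows the first SD, so it cannot be compared directly with the other 2. Across these genes, which are not independent replicates, the differences of column pair 1 and column pair 2 had a Pearson correlation of 0.463 and a Spearman correlation of 0.369. With the columns crossed the Pearson correlation was 0.221. The 2-fold rule called 14 genes higher in Sox2 (0.131% of those at the minimum) and 23 lower (0.215%). This split depended on the centring, because centring on housekeeping genes instead of all genes gave 33 higher and 7 lower. By another rule, separation of all columns by at least 1.5-fold, 26 genes were higher (0.243%) and 63 lower (0.59%). Of the called genes, 11 of the 14 higher and 20 of the 23 lower passed this rule too. All 37 called genes had separated columns. Below the minimum, 199 of 11287 genes (1.76%) were at least 2-fold higher with separated columns and 69 (0.611%) lower. For the genes called higher, the columns being apart follows in part from the rule: all 14 had a mean Flag signal below the minimum and passed only through Sox2. Likewise, 20 of the 23 called lower had a mean Sox2 signal below the minimum.

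**Figure D1:**
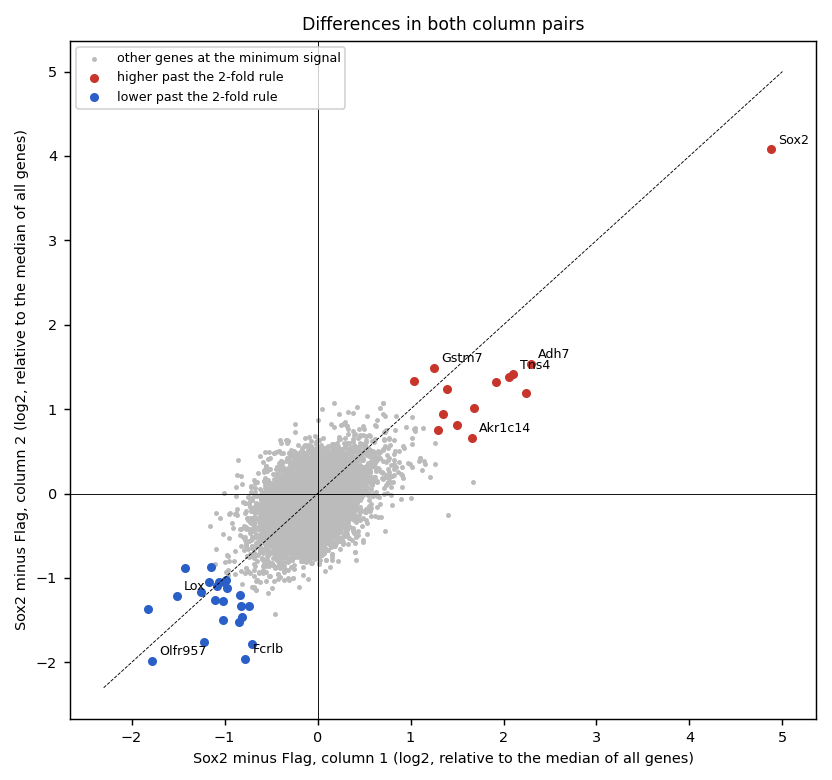
Log2 difference between Sox2 and Flag in column pair 1 (horizontal axis) and column pair 2 (vertical axis), each relative to its median over all genes, for the 10678 genes at the minimum signal. Grey points are genes not called, red points the 14 called higher and blue points the 23 called lower. Sox2 lies at 4.87 and 4.08, far from all other genes.

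The Sox2 gene checked the labels. Its signal was 2.73 and 5.12 in the Flag columns and 75.5 and 87.1 in the Sox2 columns (chromosome 3, 34649995 to 34652461, build mm10). This was the largest difference of any called gene, 22.3-fold, and the Sox2 columns were also above those of all 9 other libraries, as were those of 0.459% of genes at the minimum. The neighbouring genes lay far off: Atp11b, 1101583 bases away, had a log2 difference of 0.20. Dnajc19, 568641 bases away and below the minimum, had one of -0.09. Values were shared mostly between far closer starts, so these genes do not show how local the signal is. Reads from the viral Sox2 insert would map to the Sox2 gene, and their part in the signal was not tested. The library labelled Oct4, whose label names no Sox2, had a Sox2 signal of 62.9 and 55.2.

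The largest differences after Sox2 included genes known from epithelia. Adh7, an alcohol and retinol dehydrogenase of the stomach and oesophagus, had a signal of 2.51 and 4.12 in Flag and of 11.6 and 11.97 in Sox2, a log2 difference of 1.92. Tns4, a tensin of focal adhesions, had 3.15 and 4.71 in Flag and 12.6 and 12.5 in Sox2, a log2 difference of 1.76. Shroom3, which drives apical constriction of epithelial sheets, had 3.85 and 6.65 in Flag and 16.9 and 15.1 in Sox2, a log2 difference of 1.72. In each of these genes both Sox2 columns were above both Flag columns with no overlap. Pls1, an actin-bundling plastin of microvilli, had 3.53 and 4.10 in Flag and 8.50 and 9.68 in Sox2, a log2 difference of 1.32. Agbl1, a carboxypeptidase that trims glutamates from tubulin, had 2.14 and 2.62 in Flag and 8.41 and 6.91 in Sox2, a log2 difference of 1.72.

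A second set of called genes codes for metabolic enzymes and carriers. Gstm7, a glutathione S-transferase, had a signal of 3.74 and 4.90 in Flag and of 8.19 and 13.7 in Sox2, a log2 difference of 1.37. Akr1c14, a hydroxysteroid dehydrogenase, had 4.09 and 5.53 in Flag and 11.9 and 8.63 in Sox2, a log2 difference of 1.16. Acot1, which cleaves acyl-CoA, had 4.48 and 6.96 in Flag and 11.6 and 12.1 in Sox2, a log2 difference of 1.16. Slc25a21, a mitochondrial carrier of oxodicarboxylates, had 3.50 and 3.53 in Flag and 6.60 and 8.91 in Sox2, a log2 difference of 1.18. The column pairs of Akr1c14 gave log2 differences of 1.66 and 0.66. The size of its difference is therefore less certain than that it is above Flag in both columns. Those of Gstm7 were closer, at 1.25 and 1.49. The members just outside the 2-fold rule were Ptpn22 at 0.96, Adamtsl3 at 0.96 and Angpt1 at 0.94.

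The remaining 4 called genes have no role in common that is known for certain. Vpreb3, a partner of the pre-B cell receptor light chain, had a signal of 2.78 and 3.78 in Flag and of 9.75 and 9.49 in Sox2, a log2 difference of 1.62. Clec2h, a lectin-like ligand, had 2.28 and 3.80 in Flag and 6.84 and 7.62 in Sox2, a log2 difference of 1.34. Rftn2, a raftlin of lipid rafts, had 4.10 and 5.26 in Flag and 9.59 and 10.1 in Sox2, a log2 difference of 1.15. For Grin3a, an NMDA receptor subunit, the Flag columns were 3.50 and 7.72 and the Sox2 columns 7.92 and 12.8, a log2 difference of 1.02. Grin3a had the smallest log2 difference of the 14. It was not called with a larger pseudocount, without centring, under quantile normalisation or from column 2 alone. In deposited signal its second Flag column nearly reached its first Sox2 column. With each column centred, its Sox2 and Flag columns were separated by at least 1.5-fold.

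**Figure D2:**
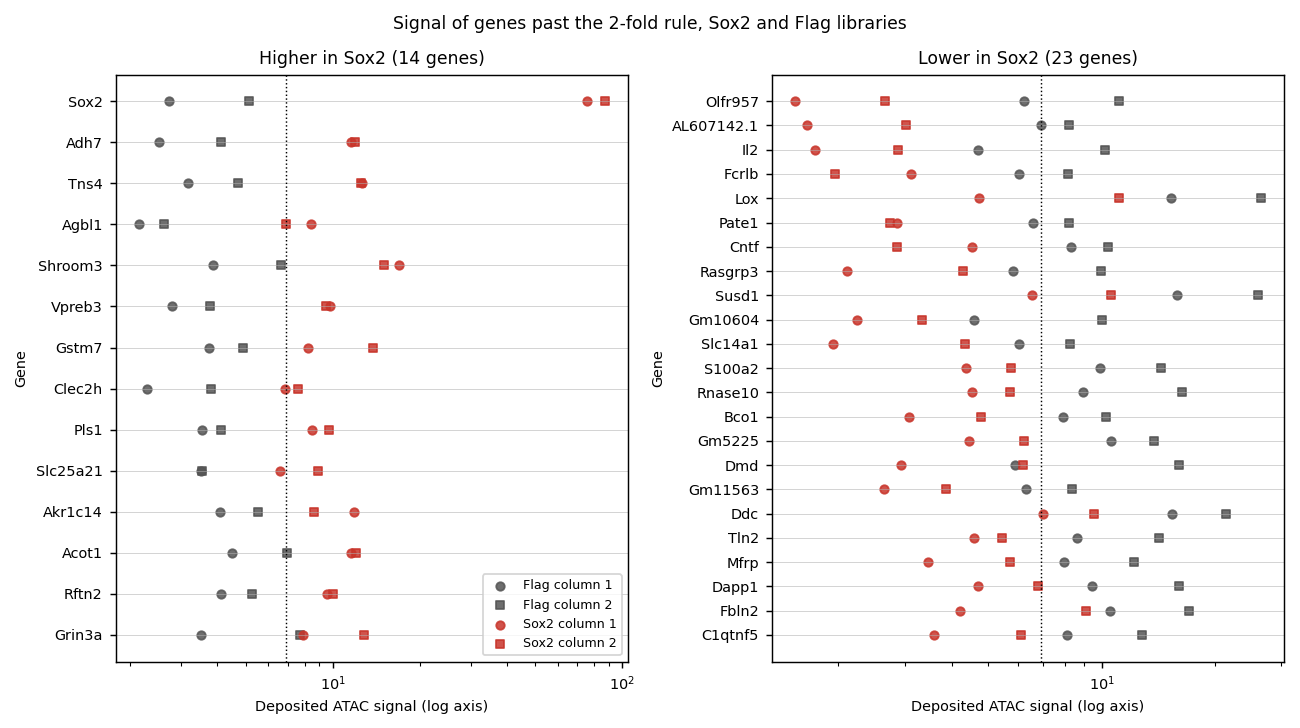
Deposited signal (horizontal log axis) of the 14 genes called higher and the 23 called lower, with circles for column 1 and squares for column 2, Flag in grey and Sox2 in red. The dotted line is the minimum signal of 6.92, and every Flag mean of the genes called higher lies below it.

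Promoter sequence was available for 11 of the 14 genes called higher, as windows of 300 bases (250 before and 50 after a RefSeq start, assembly GRCm38.p6). The Sox core CATTGT, or its reverse complement ACAATG, was present in 5 of their 14 windows (35.7%), from 4 genes. The Gstm7 windows overlap and hold the same site, so this share counts that site more than once. The core was present in 3 of 20 windows (15%) of the genes called lower. It was in 7.08% of the 10731 windows of genes at the minimum, and in 10.5% of all 20043 windows. Base composition moved with this share: 71.4% of the windows of genes called higher held at most 10 CpG, against 18.4% of those of genes at the minimum. Among all windows with at most 10 CpG, 16.8% held the core. A match describes the letters and is neither a bound site nor a cause. The 250 bases before the start are shown for the 4 genes that hold the core, and for Adh7, the largest difference after Sox2, which does not. They run 5′ to 3′, with the core in capitals; the second Gstm7 window overlaps the one shown.
Gstm7, chr3:107931818-107932067, minus strand: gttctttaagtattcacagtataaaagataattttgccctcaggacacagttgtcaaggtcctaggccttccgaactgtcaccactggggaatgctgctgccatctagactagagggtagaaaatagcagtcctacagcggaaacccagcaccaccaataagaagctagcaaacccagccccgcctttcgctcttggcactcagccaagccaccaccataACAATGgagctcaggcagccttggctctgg
Akr1c14, chr13:4059341-4059590, plus strand: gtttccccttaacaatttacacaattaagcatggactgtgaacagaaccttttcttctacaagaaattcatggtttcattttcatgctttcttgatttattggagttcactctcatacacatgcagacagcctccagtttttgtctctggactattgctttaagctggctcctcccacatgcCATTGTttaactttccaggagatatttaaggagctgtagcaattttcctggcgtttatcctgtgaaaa
Acot1, chr12:84009252-84009501, plus strand: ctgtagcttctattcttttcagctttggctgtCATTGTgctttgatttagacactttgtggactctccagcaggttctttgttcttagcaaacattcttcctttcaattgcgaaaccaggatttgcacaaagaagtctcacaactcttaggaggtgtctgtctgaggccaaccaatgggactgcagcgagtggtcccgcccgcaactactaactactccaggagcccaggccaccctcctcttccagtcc
Slc25a21, chr12:57160644-57160893, minus strand: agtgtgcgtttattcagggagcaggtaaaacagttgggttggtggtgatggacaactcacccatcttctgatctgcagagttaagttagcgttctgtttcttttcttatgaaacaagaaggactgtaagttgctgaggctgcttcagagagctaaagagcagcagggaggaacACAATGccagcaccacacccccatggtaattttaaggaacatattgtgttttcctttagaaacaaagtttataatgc
Adh7, chr3:138217523-138217772, plus strand: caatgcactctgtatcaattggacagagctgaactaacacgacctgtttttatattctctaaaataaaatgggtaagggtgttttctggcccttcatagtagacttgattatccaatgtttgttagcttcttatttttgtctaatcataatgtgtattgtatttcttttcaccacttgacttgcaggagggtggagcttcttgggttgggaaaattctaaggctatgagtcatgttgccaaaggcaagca
In Acot1 the core lies at the far end of the window. In Gstm7 it lies close to the start shown, and at the far end of the window of the other start. The Adh7 window instead holds an AP-1 match (TGANTCA), which occurs in 14.3% of the windows of genes called higher, in 25% of those of genes called lower, in 4.40% of those at the minimum and in 11.2% of all windows with at most 10 CpG. The octamer core ATGCAAA was in 3 windows of genes called higher, those of Sox2, Shroom3 and Vpreb3 (21.4%), in none of the 20 of genes called lower, in 3.13% of those at the minimum and in 5.93% of all windows with at most 10 CpG.

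Neighbouring genes differed in the same direction at some of the loci. On chromosome 13, Akr1c14 lies between Ucn3 and Akr1c18, 103642 and 42055 bases away. Ucn3, a peptide hormone of pancreatic islets, had a signal of 0.850 and 0.695 in Flag and of 4.38 and 3.18 in Sox2, and Akr1c18 had 1.26 and 1.44 in Flag and 3.25 and 2.96 in Sox2. Their log2 differences were 2.18 and 1.21, above the 1.16 of Akr1c14 itself, although both stayed below the minimum. Ppp3r2, which lies within Grin3a, had a log2 difference of 1.45, and Klrb1a beside Clec2h one of 1.08, both below the minimum. Pax9 went the other way, but overlaps Slc25a21 only at the end far from the Slc25a21 starts. Its signal was 9.10 and 15.5 in Flag and 5.65 and 11.6 in Sox2, a log2 difference of -0.45. Over all 28 neighbours of the genes called higher the median log2 difference was 0.03.

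The genes called lower included fibroblast matrix genes, but these were few. Lox, the enzyme that cross-links collagen and elastin, had a signal of 15.3 and 26.5 in Flag and of 4.73 and 11.1 in Sox2, a log2 difference of -1.36. Fbln2, a fibulin of elastic fibres and basement membranes, had 10.6 and 17.0 in Flag and 4.21 and 9.08 in Sox2, a log2 difference of -1.01. In both genes each Sox2 column was lower than each Flag column. Lox (chromosome 18, 52516060 to 52529867) was the 1 gene called lower under every alternative run. Dmd, dystrophin, had 5.89 and 16.1 in Flag and 2.93 and 6.16 in Sox2, a log2 difference of -1.08. Tln2, a talin that links integrins to actin, had 8.59 and 14.2 in Flag and 4.59 and 5.44 in Sox2, a log2 difference of -1.03.

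Other genes called lower code for receptors, secreted factors and enzymes. Olfr957, an olfactory receptor, had 6.22 and 11.1 in Flag and 1.53 and 2.66 in Sox2, a log2 difference of -1.88 that was the largest in this direction. Il2, the T cell growth factor, had 4.70 and 10.2 in Flag and 1.73 and 2.87 in Sox2, a log2 difference of -1.49. Fcrlb, an Fc receptor-like protein of B cells, had 6.04 and 8.14 in Flag and 3.11 and 1.95 in Sox2, a log2 difference of -1.37. Cntf, a neurotrophic factor, had 8.28 and 10.4 in Flag and 4.53 and 2.86 in Sox2, a log2 difference of -1.24. The 39 neighbours of the genes called lower had a median log2 difference of -0.08. S100a2, a calcium-binding protein of basal epithelial cells, had 9.92 and 14.3 in Flag and 4.35 and 5.75 in Sox2, a log2 difference of -1.14. Ddc, which makes dopamine and serotonin, had 15.4 and 21.3 in Flag and 6.97 and 9.56 in Sox2, a log2 difference of -1.05. Susd1, a sushi domain protein, had 15.8 and 26.1 in Flag and 6.53 and 10.6 in Sox2, a log2 difference of -1.18.

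The other genes called lower were AL607142.1, Pate1, Rasgrp3, Gm10604, Slc14a1, Rnase10, Bco1, Gm5225, Gm11563, Mfrp, Dapp1 and C1qtnf5. Their log2 differences reached -1.60 in AL607142.1. Mfrp and C1qtnf5 have the same RefSeq start and nearly the same values, so they stand for 1 locus. Just outside the rule were Ifi211 at -0.97, Tctex1d4 at -0.97 and Sec16b at -0.96.

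The Flag library itself was often the one that stood out once each column was centred on its own median, as in the counts of this paragraph; the deposited signals themselves can overlap. In 17 of the 23 genes called lower the centred Flag columns were above those of all 9 other libraries, against 7.64% of genes at the minimum. The call already requires a high Flag value, so the share is a description. In 3 of the 23, Lox, Fbln2 and S100a2, the centred Sox2 columns were below those of all 9 other libraries, against 2.55% of genes at the minimum. The call likewise requires Sox2 to be lower than Flag, so this share too is a description. The deposited signal of Lox, not centred, was 11.4 and 17.6 in the Klf4 library and 10.1 and 11.9 in the library labelled Oct4, where it overlapped the 4.73 and 11.1 of Sox2. Among the genes called higher, the Sox2 gene alone had its centred Flag columns below those of all 9 others (genes at the minimum: 0.73%).

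**Figure D3:**
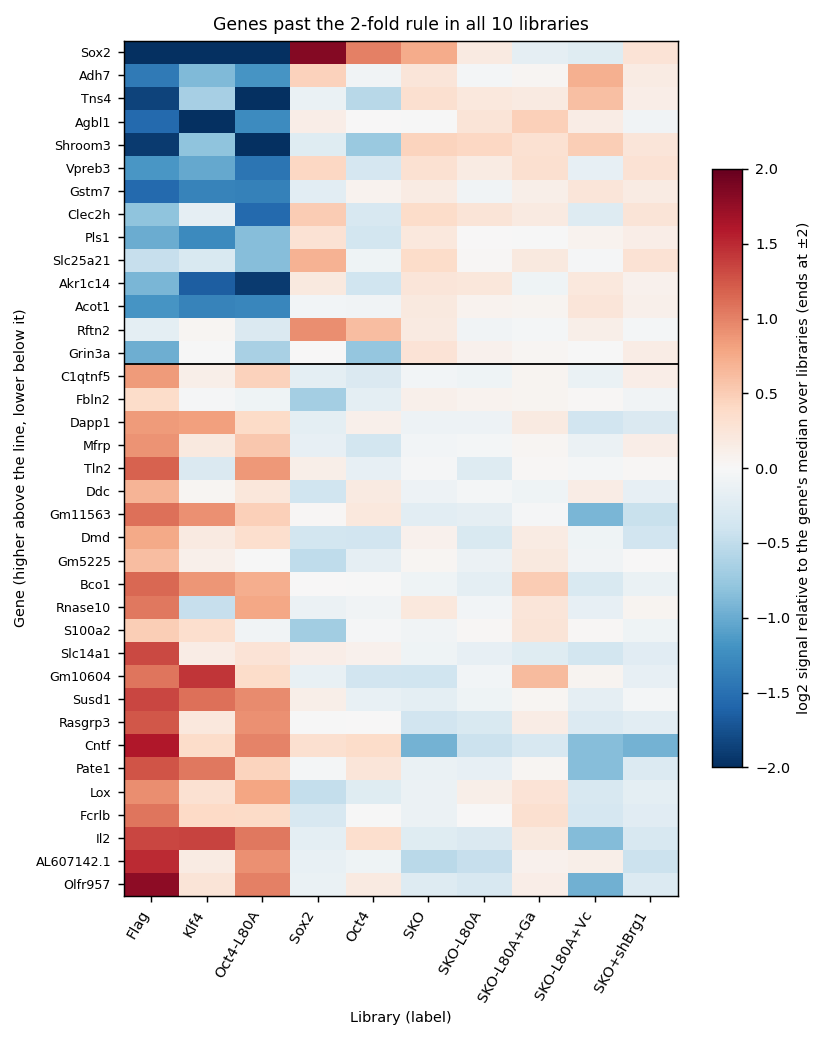
Log2 signal of the 37 called genes (rows) in the 10 libraries (columns), as the mean of both columns, each centred on its median over genes, relative to the gene's median over libraries; the colour scale ends at 2 in both directions. The genes called higher, above the line, are low in Flag and, for most, also in Klf4 and Oct4-L80A, and those called lower, below the line, are highest in Flag for most genes.

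In 2 comparisons of libraries other than Sox2 and Flag, most genes called higher again differed in the same direction. In SKO against Klf4, all 14 reached the minimum, 10 were at least 2-fold higher and 13 had separated columns. Over all genes at the minimum in that comparison, 1.16% were called higher and 33.8% had separated columns in this direction. The median log2 difference of the 14 was 1.40, against 0.17 for all genes at the minimum. The 4 not called were Rftn2 at 0.26, Grin3a at 0.40, Clec2h at 0.65 and Slc25a21 at 0.77. In the library labelled Oct4 against Oct4-L80A, 12 of the 14 reached the minimum and 10 of those were called higher, against 0.392% of all genes. Their log2 differences ran from -0.01 for Grin3a to 3.58 for Sox2. The Sox2 signal differed in the same direction here, 62.9 and 55.2 against 2.37 and 5.47, and its part in the differences was not tested.

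Set against the labels, the 5 libraries that received SKO in any form were compared with the Flag, Klf4 and Oct4-L80A libraries. Flag is among the latter, and the call already requires Flag to be lower than Sox2, so the share is a description. The centred columns of 10 of the 14 genes did not overlap between these sets of libraries, against 1.9% of the 12128 genes compared. The exceptions were Clec2h, Slc25a21, Rftn2 and Grin3a; the deposited signals of Slc25a21, not centred, did not overlap, with a lowest SKO-type value of 5.38 and a highest other value of 4.86. The deposited signal of Adh7 ran from 10.3 to 23.4 with a median of 14.4 over the SKO-type columns. Over the Flag, Klf4 and Oct4-L80A columns it ran from 2.51 to 5.58 with a median of 4.11. Its 11.6 and 11.97 with Sox2 alone fell within the SKO range. Shroom3 and Tns4 were above Flag also in the Klf4 library, at 11.4 and 12.9 and at 8.75 and 10.9. With SKO they reached 52.4 and 37.4, and 36.1 and 24.6, above their values with Sox2 alone. These signals are not centred. With each column centred, their mean log2 levels were 2.17 and 1.60 in SKO, against 1.49 and 1.15 in Sox2.

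The genes called lower had smaller differences in those comparisons. In the library labelled Oct4 against Oct4-L80A, 12 of the 23 reached the minimum, 0 were called lower by the 2-fold rule (all genes: 0.0178%), and 9 had separated columns in this direction (all genes: 15.9%). In SKO against Klf4, 16 reached the minimum, 4 were called lower (all genes: 0.288%), 10 had lower separated columns (all genes: 18.9%) and 2 higher ones (all genes: 33.8%). Lox had a log2 difference of -0.92 in the first comparison, and Fbln2 one of 0.02.

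**Figure D4:**
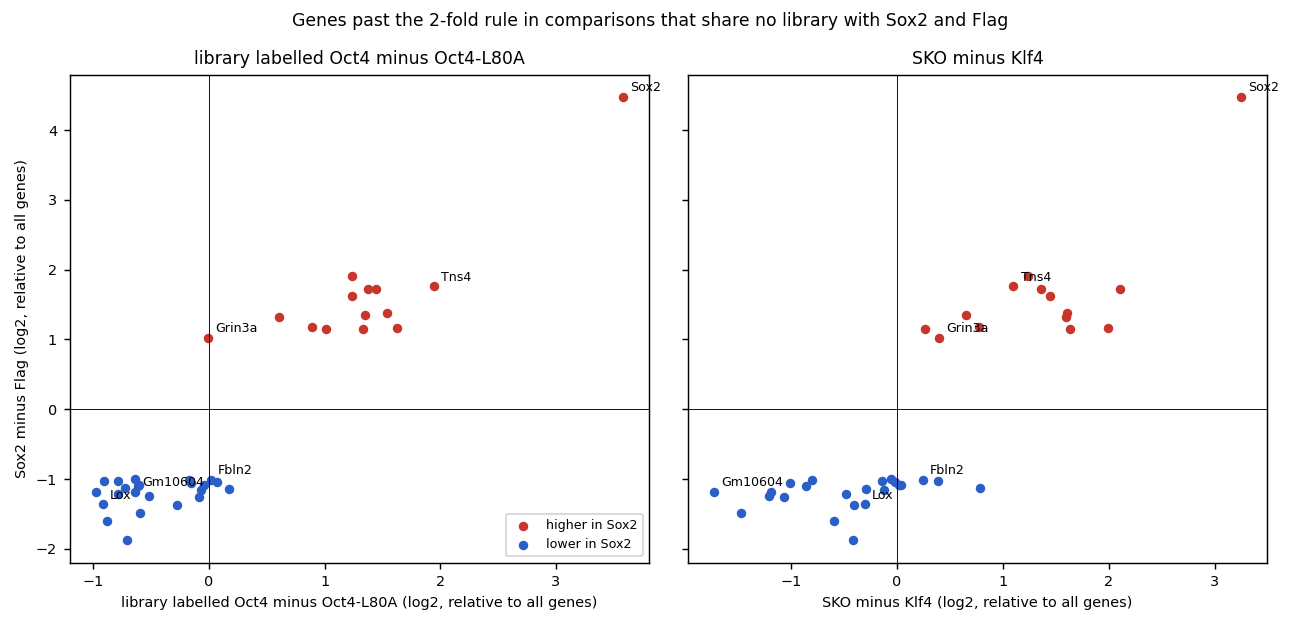
Log2 difference between Sox2 and Flag (vertical axis) against that in the library labelled Oct4 minus Oct4-L80A (left) and in SKO minus Klf4 (right), relative to the median of all genes, for the 37 called genes, including those below the minimum on the horizontal axis. Red points, called higher, lie right of 0 except Grin3a at -0.01 on the left, and blue points, called lower, lie on both sides of 0.

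Among the 19 Sox genes of the table, 9 reached the minimum and Sox2 was the 1 called. Sox21, which acts in neural progenitors, had a signal of 3.25 and 6.11 in Flag and of 6.67 and 7.63 in Sox2, a log2 difference of 0.75. Sox6, a regulator of cartilage and neurons, had 4.78 and 8.45 in Flag and 8.69 and 10.6 in Sox2, a log2 difference of 0.67. Both had separated columns without reaching 2-fold. Over all genes at the minimum, 8.44% were separated in this direction and 42.3% in the other. Sox21 and Sox6 had a mean Flag signal below the minimum and passed only through Sox2. Their separation thus follows in part from the rule and is a description. The other Sox genes at the minimum were between -0.19 for Sox9 and 0.05 for Sox13. Sox9 had 11.6 and 16.9 in Flag and 9.40 and 14.1 in Sox2, and was the lowest of the family.

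Of the 40 genes of the pluripotency network, 8 reached the minimum, with a median log2 difference of -0.09 against -0.14 for all genes at the minimum. None of the 8 was called, which with 0.131% of all genes called higher and 0.215% lower says nothing particular about them. Nanog, which sustains the pluripotent state, stayed at background, with a signal of 0.562 and 0.793 in Flag and of 0.545 and 0.563 in Sox2. Pou5f1, which codes for Oct4, had 0.812 and 1.12 in Flag and 2.34 and 3.03 in Sox2, a log2 difference of 1.45 below the minimum. The cells of both libraries carry extra Oct4 promoter sequence in their transgene, and its part in this value was not tested. Rif1, a replication timing factor, had a log2 difference of 0.27, and Klf2, a factor of the naive state, one of -0.41.

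Lists of cell types in which Sox2 normally acts held few genes at the minimum, and their counts of called genes stand beside 0.131% called higher and 0.215% called lower over all genes. In the foregut and squamous epithelium list, 8 of 50 reached it, Adh7 was called, and the median log2 difference was -0.13. Of these 8 genes, 6 were below 0. Columns were separated lower in 4 of them and higher in Adh7 alone. In the simple epithelium and junctions list, 8 of 30 reached it, Shroom3 and Tns4 were called higher, and the median was 0.04. Pard6b, a polarity protein, had a log2 difference of 0.37 in this list, and Tjp1, a tight junction scaffold, one of 0.13. Of the 8 genes at the minimum in this list, 4 were below 0, against 72.3% of all genes at the minimum. Adh7, Shroom3 and Tns4 had a mean Flag signal below the minimum and passed only through Sox2. The lists were also chosen with earlier results of these data known. The counts and medians of these lists are therefore descriptions. The neural stem and progenitor list had 10 of 40 genes at the minimum, 0 called, which is near those shares, and a median of 0.05. Notch1, the receptor that maintains progenitors, had 8.65 and 12.5 in Flag and 10.4 and 16.5 in Sox2, a log2 difference of 0.42, and Pax6 had one of 0.34. In the neural list 5 of the 10 genes at the minimum were below 0.

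Fibroblast markers had lower signal with Sox2, by less than 2-fold and the sign of their median was the same under every centring run. Of 15 MEF markers 9 reached the minimum, and all 9 had a log2 difference below 0 with a median of -0.39. Over all genes at the minimum 72.3% were below 0, with a median of -0.14, and among ribosomal protein and histone genes at the minimum 93.5% and 98% were. The summed signal of the 15 MEF markers was 150 and 227 in the Flag columns and 111 and 158 in the Sox2 columns. Col1a1, a chain of type I collagen, had 19.8 and 24.7 in Flag and 12.2 and 16.1 in Sox2, a log2 difference of -0.56. Pdgfrb, a growth factor receptor of mesenchyme, had 10.5 and 17.2 in Flag and 7.62 and 8.20 in Sox2, a log2 difference of -0.67. Vim, the intermediate filament of mesenchymal cells, had 33.4 and 49.3 in Flag and 25.1 and 30.3 in Sox2, a log2 difference of -0.46. For each of these genes the Sox2 columns did not reach the level of the Flag columns once each column was centred.

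In the list of matrix enzymes, elastic fibre and matricellular genes, 30 of 48 reached the minimum, Lox and Fbln2 were called lower (all genes: 0.215%), and the median log2 difference was -0.30. Ltbp1, which stores latent TGF-beta, and Ctgf, a matricellular growth factor, each had a log2 difference of -0.61. Timp3, an inhibitor of metalloproteinases, was on the other side at 0.40. Collagens had a median of -0.20 (12 of 19 at the minimum) and contractile genes one of -0.30 (20 of 28). In the fibroblast surface list, where 19 of 35 reached the minimum with a median of -0.26, Ddr2, a collagen receptor, and Gas1, a membrane protein that arrests growth, were among the 63 genes separated by 1.5-fold. Ddr2 had 10.9 and 16.5 in Flag and 4.97 and 8.53 in Sox2, and Gas1 had 19.9 and 32.3 in Flag and 10.6 and 16.7 in Sox2.

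Lists unrelated to fibroblasts also had medians below 0. The median log2 difference was -0.21 for housekeeping genes (30 at the minimum), -0.24 for ribosomal protein genes (77) and -0.34 for histone genes (50). It was 0.30 for the 1135 olfactory receptor genes, nearly all of them below the minimum. Over quartiles of the level in the other 8 libraries, the median log2 difference was 0.19, 0.08, -0.04 and -0.19 from the lowest to the highest quartile. The genes with the highest signal therefore had the lowest differences, and the ratio of housekeeping to olfactory signal was lower in Sox2, as given above. Over all members of a list, at the minimum or not, the median was -0.35 for MEF markers, -0.24 for the matrix list, -0.22 for contractile genes and -0.20 for housekeeping genes. With the trend removed by lowess these medians were -0.34, -0.18, -0.08 and 0.00. With housekeeping centring the MEF markers were at -0.12, the matrix list was at -0.01, and contractile genes, collagens and fibroblast surface genes changed sign, to 0.01, 0.10 and 0.07. The part of the trend in the single genes was not tested.

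**Figure D5:**
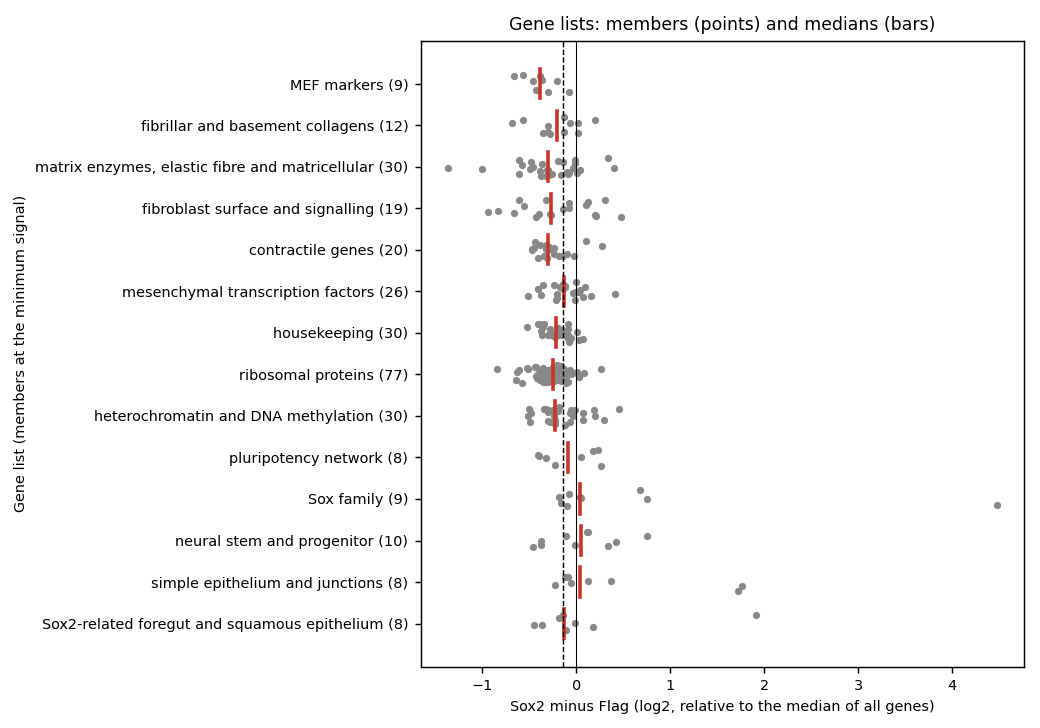
Log2 difference between Sox2 and Flag (horizontal axis, relative to the median of all genes) for the members at the minimum signal (grey points) of 14 gene lists, with the number of such members in brackets and the list median as a red bar. The dashed line is the median of -0.14 over all genes at the minimum; MEF markers have a median of -0.39, and Sox2 stands apart in the Sox family at 4.48.

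Most markers of other cell types were below the minimum in both libraries. Of 10 epithelial markers 0 reached the minimum, with a summed signal of 14.04 and 21.0 in Flag and 16.8 and 26.7 in Sox2. Grhl2, an epithelial transcription factor, had 1.05 and 1.68 in Flag and 2.46 and 3.13 in Sox2, whereas Cdh1, E-cadherin, had 1.36 and 1.86 in Flag and 1.34 and 1.91 in Sox2. Among pluripotent, endothelial and muscle markers 0 of 10 each reached the minimum, while 2 of 10 blood and 3 of 10 neural markers did. The summed signal of the blood markers was 18.7 and 27.6 in Flag and 22.1 and 29.6 in Sox2, and that of the neural markers 27.2 and 44.5 in Flag and 26.4 and 50.9 in Sox2. The part of other cell types in the differences was not tested.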

How the data were processed

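ATAC-seq signal per gene came from a table deposited by the authors, with 2 columns for each of 10 libraries, used here for Sox2 and Flag and, as a description, for the other 8 libraries. Per the submitters' processing notes, the build was mm10 and the tools included Bowtie2 2.2.5, bedtools 2.25.0, MACS2 2.1.0, SAMtools 1.3.1, deepTools, Picard, cutadapt 1.13 and Trimmomatic 0.35. Which step each served, which window around a gene was read and how columns were scaled is not stated in them. Depth is unknown, so no interval was computed. With 1 library per condition no replicate error exists and no test was made.

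Differences were log2 ratios with a pseudocount of 0.138 (percentile 10 of values above 0), less the all-gene median of each column pair, averaged over both pairs. The rules for calls stand with the results. The members and gene lists were chosen with earlier results of these data known. Named genes were the 15 largest called differences in each direction, list members called, at most 3 separated members per list and direction, all Sox genes and a fixed group of factor and fibroblast genes; others were chosen after their values were seen. Of the symbols, 20784 were matched to a RefSeq position and 16445 to a promoter window (GRCm38.p6). The alternatives were another pseudocount, no minimum, other centrings, quantile normalisation, lowess (fraction 0.3, 3 iterations), other separation folds and each column alone. Python 3.11.15, numpy 2.4.6, pandas 2.3.3, scipy 1.17.1, statsmodels 0.14.6 and matplotlib 3.10.9 were used, and the procedure was tested on simulated data.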

Additional observations from a re-analysis of the deposited data

Results flagged for a closer look

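The library labelled Oct4, whose label names no Sox2 virus, had a mean signal of 59 over the Sox2 gene (62.9 and 55.2 in its columns), above the 2.73 and 5.12 of the Flag control. Besides the comparison with Oct4-L80A, this library is one of the 9 others against which Flag and Sox2 were placed and one of the 8 that set the quartiles. The source of this signal was not tested.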

How the results depend on the processing

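No paired analysis was possible because each condition has 1 library and the labels carry no replicate numbers. The 14 genes called higher and the 23 called lower became 260 and 93 without a minimum signal, 33 and 7 with housekeeping centring, 29 and 13 from column 1 alone, and 27 and 54 from column 2 alone. Under a pseudocount 4 times larger or smaller, no centring, quantile normalisation and lowess, the counts stayed within 1.5 times of these, at 13 to 21 higher and 17 to 30 lower. The 26 and 63 genes separated by 1.5-fold became 168 and 137 without a minimum, 13 and 19 without centring, 78 and 21 with housekeeping centring, 901 and 4519 at a fold of 1, and 5 and 6 at a fold of 2. Quantile normalisation gave 46 separated higher, and lowess 40 separated lower. Called under every alternative run were 7 genes higher (Sox2, Gstm7, Adh7, Shroom3, Vpreb3, Pls1 and Tns4) and 1 lower (Lox); leaving out the single columns these were 13 and 7. Of the other values, 424 of single genes moved by less than the SD of the 2 column pairs and 62 by more, and 232 list medians against 155. Leaving out the minimum cannot move these values. For single genes a column alone always moves by less than this SD. The counts of unmoved values are therefore partly fixed in advance. No called gene changed direction; with housekeeping centring the medians of collagens, fibroblast surface genes and contractile genes did. The cause of these shifts was not tested.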

Other observations

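Among the 199 genes below the minimum signal that were at least 2-fold higher in Sox2, some had larger differences than most called genes. The genes named here were chosen after their values were seen. Rsc1a1, a regulator of sugar transporters, had a signal of 0.642 and 0.480 in Flag and of 5.06 and 6.32 in Sox2, a log2 difference of 3.15 that was larger than that of any called gene but Sox2. It was 5.44 and 3.44 in SKO and 0.149 and 0.158 with Klf4 alone. Tgm6, a transglutaminase, had 0.771 and 0.561 in Flag and 4.50 and 4.34 in Sox2, but 2.69 and 1.009 in SKO. Hc, complement component C5, had 1.27 and 1.46 in Flag and 4.67 and 6.57 in Sox2, and 14.1 and 7.78 in SKO. Tuft1, first known from tooth enamel, had 0.714 and 1.03 in Flag and 4.44 and 5.44 in Sox2, and 9.33 and 5.49 in SKO. These SKO signals are not centred, and do not show a level above Sox2 alone relative to other genes. The column medians over genes were 10.6 and 8.89 in SKO, against 3.99 and 7.79 in Sox2. Neb, nebulin of skeletal muscle, had 0.985 and 1.02 in Flag and 4.20 and 4.45 in Sox2. In each of these genes both Sox2 columns were above both Flag columns, at levels under the median of the table.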
